A study of Cricetulus griseus with 6 samples.

Results

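The genes described here encode components of the PI3K and AKT pathway, a list of 8 symbols (Akt1, Akt2, Pik3ca, Pik3cb, Pik3r1, Pik3r2, Pik3ip1 and Pdpk1) taken from the annotation of an Affymetrix CHO Gene ST array. A gene was counted as measured when at least 1 transcript cluster, the set of probes that reads out 1 locus, carried that symbol and no other. By this rule 7 of the 8 were measured, out of 14899 genes in the whole series, each through its transcript cluster with the highest mean over the 6 arrays. Pdpk1, the kinase that phosphorylates AKT at the membrane, was on a cluster that also carries the symbols Kctd5 and LOC100775082, so it was counted for no gene.

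Class IA PI3-kinases are heterodimers of a catalytic subunit (p110) and a regulatory subunit (p85). They are recruited to phosphorylated receptors of the HER family and make the lipid PIP3 at the plasma membrane. PIP3 brings AKT to the membrane, where PDPK1 and mTOR complex 2 phosphorylate it, and active AKT promotes growth and survival and keeps the FOXO transcription factors out of the nucleus. HER2 signals to this pathway largely through its partner HER3, and trastuzumab and pertuzumab bind different parts of the extracellular region of HER2, pertuzumab at the arm with which it dimerizes. The arrays measured RNA, and phosphorylation of AKT was not measured on them.

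CHO-K1 is the wild type Chinese hamster ovary line, and CHO-K6 is 1 stable CHO line that carries human HER2 and was kept under G418 selection, so HER2, other differences of that line and the selection cannot be told apart. The authors of the data state that signalling from HER2 to PI3K and AKT does not work in CHO-K6. Untreated cells and cells given trastuzumab + pertuzumab were measured in both lines, and cells given trastuzumab or pertuzumab alone in CHO-K6. All cells were first kept for 24 h in RPMI-1640 with 1% serum. Fresh medium with 10% serum followed for 24 h, with the antibodies at 10 µg/mL where they were given. Whether the combination held this dose of each antibody is not clear from the sources used here. There was 1 array per condition, so no difference below has a replicate check, no p-value was computed, and fewer cells of a kind and less RNA per cell cannot be told apart. The hamster probes do not measure the human HER2 transcript as such; the log2 signal of the Erbb2 cluster was 8.50 on the untreated and 8.64 on the treated CHO-K1 array, and 9.01, 8.80, 9.21 and 9.01 on the untreated, trastuzumab, pertuzumab and combination arrays of CHO-K6.

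The values are log2 signals, and the array medians were 5.89 to 5.91 over 29700 transcript clusters. The lines are labelled epithelial. Of 5 epithelial markers measured, 4 were below a log2 signal of 6 on all arrays (Epcam, Krt8, Krt18 and Cldn1), and Cdh1 had 5.86 to 6.49. Of the 5 mesenchymal markers, Vim had 13.19 to 13.30, Fn1 11.39 to 11.54 and S100a4 8.11 to 9.06, while Cdh2 (5.09 to 5.40) and Col1a1 (5.78 to 6.12) were near or below the array medians. A difference was called at 2-fold, and a second scale, the CHO-K1 reference, is the 95th percentile of the absolute log2 difference between the 2 CHO-K1 arrays over clusters of similar signal. This reference was 0.30 for Akt1 and Akt2, 0.39 for Pik3ca, Pik3cb, Pik3r1 and Pik3r2, and 0.50 for Pik3ip1. It is not a replicate error, since 1 of the CHO-K1 arrays was treated. Between the untreated lines S100a4 was past it, 0.89 higher in CHO-K6. Signals of different genes are not comparable on such arrays, so every comparison below is between arrays for the same gene.

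The catalytic subunits were the first group compared between the lines. Pik3cb, which encodes p110β, had a log2 signal of 8.27 on the untreated and 8.04 on the treated CHO-K1 array. On the CHO-K6 arrays its log2 signal was 9.60 untreated, 9.67 with trastuzumab, 9.54 with pertuzumab and 9.65 with the combination. The lines did not overlap, and the gap between the nearest arrays of the lines was 1.27, against a spread of 0.13 within CHO-K6. Untreated CHO-K6 was 1.33 above untreated CHO-K1 on the log2 scale (2.51-fold), a difference that 177 of the 29700 clusters (0.596%) exceeded upwards. A second Pik3cb cluster gave the same picture with 7.39 and 7.32 on the CHO-K1 arrays and 8.55 to 8.77 on the CHO-K6 arrays, and an untreated difference of 1.29.

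Pik3ca, which encodes p110α, moved much less. Its log2 signal was 8.92 on the untreated and 8.53 on the treated CHO-K1 array, and 9.24, 9.27, 8.93 and 9.17 on the untreated, trastuzumab, pertuzumab and combination arrays of CHO-K6. All CHO-K6 arrays were above both CHO-K1 arrays, but the pertuzumab array of CHO-K6 exceeded the untreated CHO-K1 array by only 0.01. The untreated lines differed by 0.32, within the CHO-K1 reference.

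The regulatory subunits differed from each other. Pik3r2, encoding p85β, had log2 signals of 9.33 and 9.56 on the untreated and treated CHO-K1 arrays and of 8.75, 8.89, 9.15 and 8.92 on the untreated, trastuzumab, pertuzumab and combination arrays of CHO-K6. Every CHO-K6 array was below both CHO-K1 arrays with a gap of 0.18, and the untreated difference was -0.58, past the reference. Pik3r1, encoding p85α and its shorter forms, had 9.53 and 9.13 on the untreated and treated CHO-K1 arrays and 9.64, 9.66, 9.48 and 9.67 on the CHO-K6 arrays in the same order, which is kept for every gene below. Here the lines overlapped, as the pertuzumab array of CHO-K6 lay below untreated CHO-K1. The untreated difference was 0.11, and -0.03 on a second Pik3r1 cluster, whose values of 8.37 to 8.87 also overlapped between the lines.

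Pik3ip1 encodes a membrane protein that binds the catalytic subunit and inhibits PI3K. It had a log2 signal of 5.94 on the untreated and 6.02 on the treated CHO-K1 array, close to the array median. The 4 CHO-K6 arrays had 7.05 untreated, 7.07 with trastuzumab, 7.15 with pertuzumab and 6.99 with the combination. The lines were apart by 0.97, the untreated difference was 1.11 (2.16-fold higher in CHO-K6), and 303 clusters exceeded it upwards. A catalytic subunit and an inhibitor of the enzyme were both higher in CHO-K6, on arrays of 4 different treatments.

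The AKT kinases also went apart. Akt1 had a log2 signal of 11.23 on the untreated and 11.43 on the treated CHO-K1 array. On CHO-K6 it was 10.27 untreated, 10.28 with trastuzumab, 10.61 with pertuzumab and 10.44 with the combination, so that the highest CHO-K6 array was 0.62 below the lowest CHO-K1 array. Untreated CHO-K6 had 51.4% of the signal of untreated CHO-K1 (a log2 difference of -0.96), just short of 2-fold, and 218 clusters (0.734%) were lower by more. Akt2, the isoform best known for its part in glucose uptake under insulin, had 10.87 and 10.99 on the CHO-K1 arrays and 11.10, 11.16, 11.37 and 11.15 on the CHO-K6 arrays. Its lines did not overlap either, but the gap was 0.11 and the untreated difference of 0.23 stayed within the reference.

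**Figure D1:**
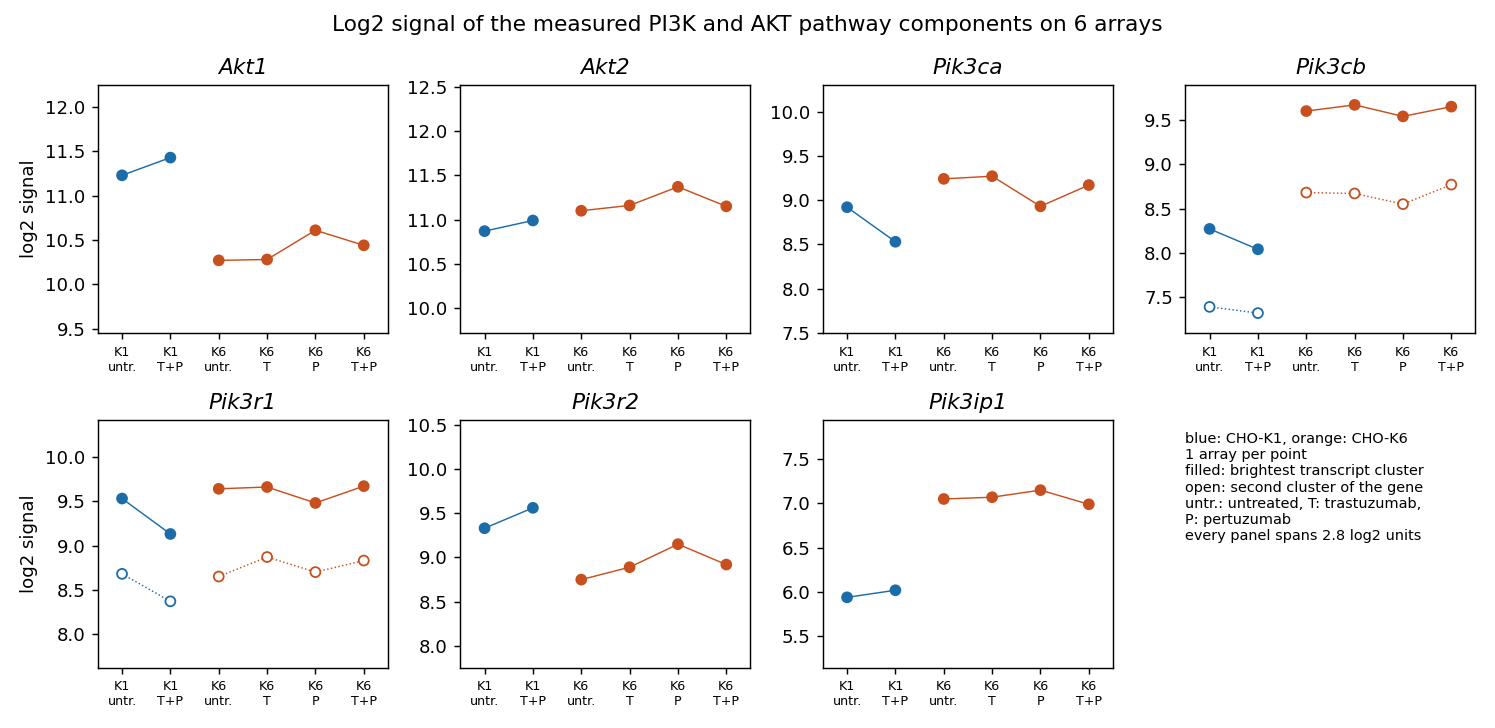
Log2 signal (vertical axis) of the 7 measured PI3K and AKT pathway genes on the 6 arrays (horizontal axis), with CHO-K1 in blue and CHO-K6 in orange, 1 array per point and the second transcript cluster of Pik3cb and Pik3r1 as open points. Pik3cb and Pik3ip1 are higher and Akt1 lower on all 4 CHO-K6 arrays, with gaps of 1.27, 0.97 and 0.62 between the lines, whereas the lines overlap for Pik3r1.

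In all, 2 of the 7 genes passed 2-fold between the untreated lines, Pik3cb and Pik3ip1, where 2.1% of all clusters did. Past the CHO-K1 reference were 4 of 7, against 15.7% of all clusters and 23.2% of the bright ones, meaning here those whose mean over the 6 arrays was a log2 signal of at least 6. Counted by position, 4 of 7 had every CHO-K6 array above both CHO-K1 arrays (15.9% of all clusters) and 2 of 7 had every one below (21.1%). All 7 genes were bright, and the shares by position were not computed over bright clusters alone, so these are not like for like. The median difference of the 7 was 0.23, that of all clusters -0.03. The 7 thus held both directions, with Akt1 and Pik3r2 lower in CHO-K6, and Pik3cb and Pik3ip1 higher.

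The lines could be compared a second time on arrays that share no sample with the first pair, those of cells given trastuzumab + pertuzumab. Pik3cb was 1.61 higher in treated CHO-K6 than in treated CHO-K1 on the log2 scale (3.05-fold), and 1.45 on its second cluster. Akt1 was -0.99 there, Pik3r2 -0.64 and Pik3ip1 0.97 (1.96-fold, so no longer past 2-fold). These 4 genes kept their direction. Pik3ca and Pik3r1 were further apart on this pair, at 0.64 and 0.54, and both were lower on the treated than on the untreated CHO-K1 array, while Akt2 was at 0.16. On this pair 1 of 7 genes passed 2-fold (3.02% of all clusters) and 6 of 7, all but Akt2, passed the reference (18.9% of all clusters and 29.4% of the bright ones).

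**Figure D2:**
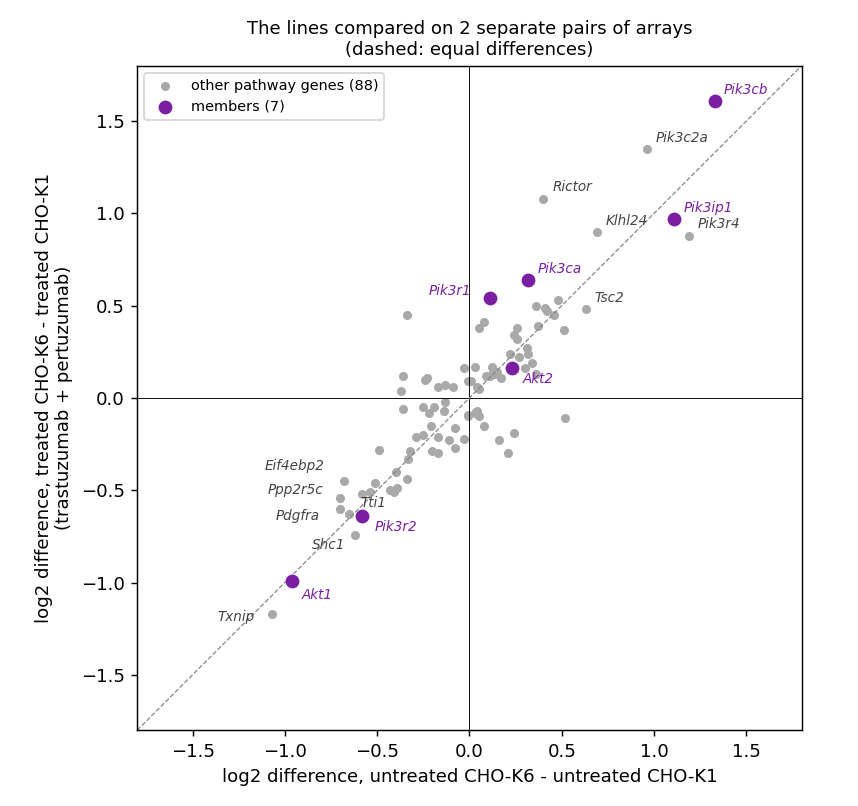
Log2 difference between CHO-K6 and CHO-K1 on the untreated arrays (horizontal axis) and on the trastuzumab + pertuzumab arrays (vertical axis) for the 7 measured PI3K and AKT pathway genes (purple) and 88 other genes of the pathway (grey), with equal differences on the dashed line. Pik3cb (1.33 and 1.61) and Akt1 (-0.96 and -0.99) lie at opposite ends among the 7, with Txnip (-1.07 and -1.17) beyond Akt1, and Pik3ca and Pik3r1 lie above the dashed line.

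The effect of trastuzumab was asked in CHO-K6 only. The 3 antibody comparisons of CHO-K6 share the untreated array, which is also part of the comparison between the lines, so an error of that array would enter all of them. With trastuzumab the 7 genes differed from untreated CHO-K6 by 0.01 (Akt1) to 0.14 (Pik3r2) on the log2 scale, with a median of 0.03 against 0.00 for all clusters. None of the 7 passed 2-fold (0.0976% of all clusters and 0 of 14499 bright ones did). None passed the reference (1.76% of all clusters and 0.876% of the bright ones). No direction can be read from differences of this size, and the second clusters were at -0.01 for Pik3cb and at 0.22 for Pik3r1, also within the reference.

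With pertuzumab the same genes moved apart from each other. Akt1 had 10.61 against 10.27 in untreated CHO-K6, a difference of 0.34 (1.27-fold), and Pik3r2 had 9.15 against 8.75, a difference of 0.40 (1.32-fold) that lay just past its reference of 0.39. Akt2 was 0.27 higher and Pik3ip1 0.10 higher, both within the reference. Pik3ca was at -0.31 and Pik3cb at -0.06, again within the reference. The Pik3r1 clusters disagreed in sign, at -0.16 and 0.05, so no direction can be given for this gene. None of the 7 passed 2-fold, as against 0.593% of all clusters, and 2 of 7 passed the reference, as against 8.75% of all clusters and 12.0% of the bright ones. The median difference of the 7 was 0.10 and that of all clusters 0.04. Set against the average of the trastuzumab and combination arrays instead, Akt1 was 0.25 and Pik3r2 0.24 higher, and neither passed the reference.

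For both genes the pertuzumab array was the CHO-K6 array nearest to CHO-K1. It was also the lowest CHO-K6 array for Pik3ca, for both clusters of Pik3cb and for the brighter cluster of Pik3r1 (on the second, untreated CHO-K6 was lowest at 8.65, against 8.70 with pertuzumab), and the highest for Akt1, Akt2, Pik3r2 and Pik3ip1. Set directly against the trastuzumab array at the same dose and time, pertuzumab gave 0.33 for Akt1, 0.26 for Pik3r2 and 0.21 for Akt2, and -0.34 for Pik3ca, -0.18 for Pik3r1 and -0.13 for Pik3cb. With 1 array each, no interval of these differences could be given.

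On the combination array of CHO-K6 the values of Akt1, Akt2, Pik3r2 and Pik3ca lay between those of the untreated and the pertuzumab array. Those of Pik3cb (9.65) and Pik3r1 (9.67) lay above both arrays, and that of Pik3ip1 (6.99) lay below both. With the combination the 7 genes differed from untreated CHO-K6 by -0.07 (Pik3ca) to 0.17 (Akt1 and Pik3r2), with 0.18 on the second Pik3r1 cluster, and the median was 0.05 against 0.01 for all clusters. None passed 2-fold (0.118% of all clusters and 0 of 14499 bright ones). None passed the reference (1.92% of all clusters and 0.676% of the bright ones). Against the pertuzumab array, the combination array was 0.17 lower for Akt1, 0.22 lower for Akt2 and 0.23 lower for Pik3r2, and 0.24 higher for Pik3ca.

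**Figure D3:**
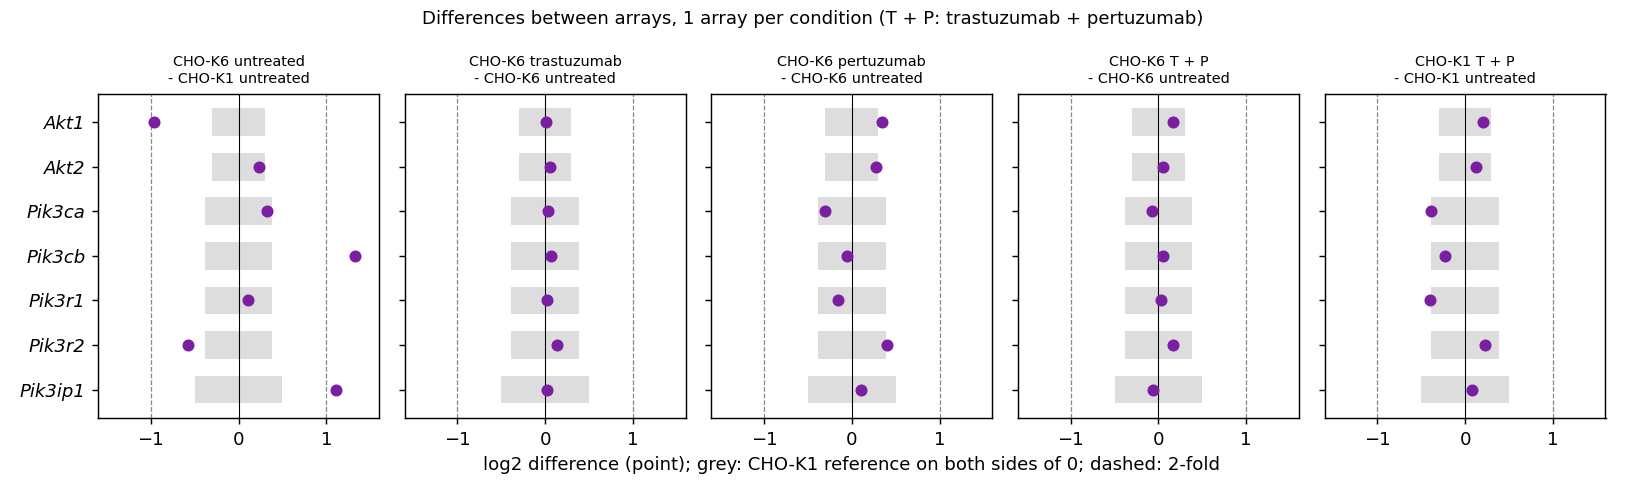
Log2 difference (horizontal axis) of each of the 7 measured PI3K and AKT pathway genes in the 5 comparisons, 1 array against 1 array, with the CHO-K1 reference as a grey band and 2-fold as dashed lines. Pik3cb (1.33), Pik3ip1 (1.11), Akt1 (-0.96) and Pik3r2 (-0.58) leave the band between the untreated lines, and no gene leaves it with trastuzumab or with the combination in CHO-K6.

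In CHO-K1, which does not carry the human receptor, the combination array was set against the untreated one. Pik3ca went from 8.92 to 8.53 (-0.39) and Pik3r1 from 9.53 to 9.13 (-0.40), both barely past their reference of 0.39. The second Pik3r1 cluster was lower by 0.31 in the same direction. Pik3cb was at -0.23, and at -0.07 on its second cluster, both within the reference. Akt1 was at 0.20, Pik3r2 at 0.23, Akt2 at 0.12 and Pik3ip1 at 0.08, also within the reference. None of the 7 passed 2-fold (0.249% of all clusters and 0.0897% of the bright ones). The reference was passed by 2 of 7 and by 4.87% of all clusters, close to the 5% left by its construction. Only 1 of these calls was left under 3 other ways of processing, Pik3r1 with quantile normalization or the series matrix values and Pik3ca with the mean of a gene's clusters. The median of the 7 was 0.08, and that of all clusters 0.02.

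The comparison of pertuzumab in CHO-K6 and the comparison of the combination in CHO-K1 share no array. On the brighter cluster of each gene all 7 had the same sign in both: Akt1, Akt2, Pik3r2 and Pik3ip1 higher, and Pik3ca, Pik3cb and Pik3r1 lower than in the untreated cells of the line. The second Pik3r1 cluster had opposite signs, at 0.05 and -0.31, so the like sign of Pik3r1 rests on 1 of its clusters. None of the 7 passed the reference in both comparisons. The smallest differences, from which no direction can be read, were Pik3cb in CHO-K6 (-0.06), Akt2 in CHO-K1 (0.12) and Pik3ip1 in both (0.10 and 0.08). The like signs of these 3 genes carry little. Of the other measured genes of the pathway 59 of 88 had the same sign in both (67.0%), of all clusters 61.9%, and of bright clusters 73.2%, so that like signs were common over the whole array.

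**Figure D4:**
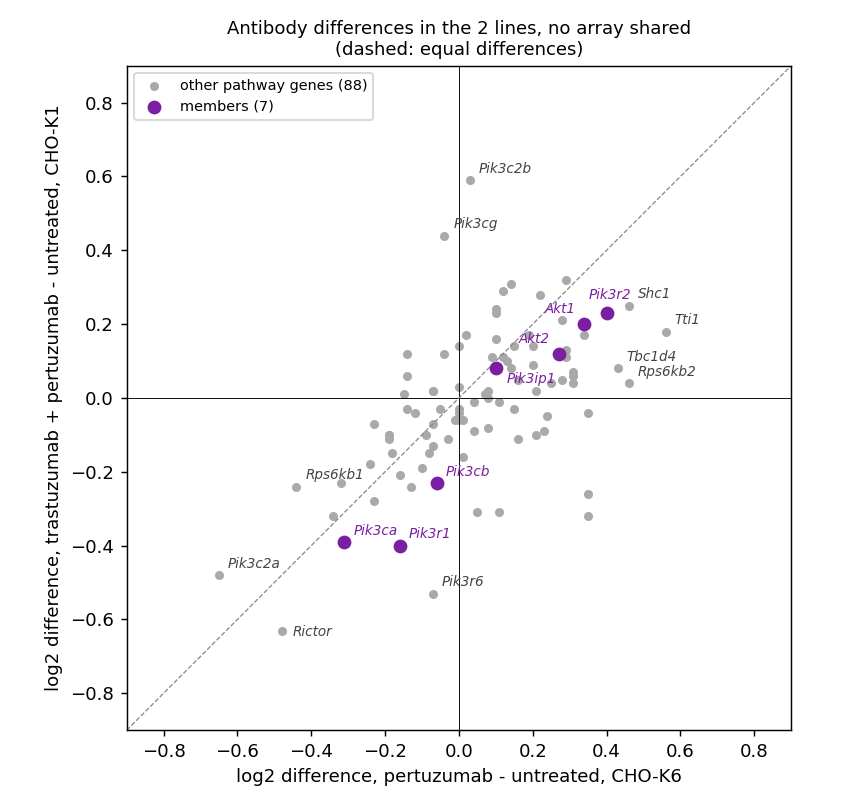
Log2 difference of pertuzumab from untreated cells in CHO-K6 (horizontal axis) and of trastuzumab + pertuzumab from untreated cells in CHO-K1 (vertical axis), which share no array, for the 7 measured PI3K and AKT pathway genes (purple) and 88 other genes of the pathway (grey). By their brighter clusters, the 7 genes lie in the upper right (Akt1, Akt2, Pik3r2, Pik3ip1) and the lower left (Pik3ca, Pik3cb, Pik3r1), from Pik3r2 at 0.40 and 0.23 to Pik3ca at -0.31 and -0.39.

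The rest of the pathway was followed in 10 lists with 103 genes, of which 88 were measured, and 15 were not analysed here. Between the untreated lines 2 of the 88 passed 2-fold and 21 (23.9%) the reference, 10 higher and 11 lower in CHO-K6, with a median of -0.01. The shares over all clusters and over the bright ones were 15.7% and 23.2%. Not all of the 88 were bright, with only 1 of 5 in the list of other class I genes. The share over the bright genes of the lists alone was not computed, so these are not like for like.

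Among the other PI3-kinases, 2 of 5 genes of class II and III passed the reference, both higher in CHO-K6. Pik3r4, the regulatory subunit of the class III enzyme that works in autophagy and endosomal traffic, had 8.02 and 8.19 on the untreated and treated CHO-K1 arrays and 9.21, 9.10, 9.23 and 9.07 on the untreated, trastuzumab, pertuzumab and combination arrays of CHO-K6. Its untreated difference was 1.19, and 1.23 on a second cluster. Pik3c2a, a class II enzyme of clathrin-coated membranes, had 9.48 and 9.00 on the CHO-K1 arrays and 10.44, 10.40, 9.79 and 10.35 on the CHO-K6 arrays, a difference of 0.96 between the untreated lines. It was also the gene of the 88 with the largest pertuzumab difference, -0.65. The remaining class I list held 5 measured genes, of subunits and an adaptor. None of the 5 passed the reference between the untreated lines, with Pik3r5 at -0.01 and Pik3cd at -0.17, the latter at a log2 signal of 4.85 to 5.09.

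Upstream, 5 of 13 receptors and adaptors passed the reference between the untreated lines, 2 higher and 3 lower in CHO-K6. Among the 2 higher was the hamster Erbb2 cluster, at 0.51. Whether the human HER2 transcript of CHO-K6 adds to its signal was not tested. Shc1, an adaptor that binds phosphorylated HER receptors, had 10.30 and 10.55 on the CHO-K1 arrays and 9.68, 9.89, 10.14 and 9.81 on the CHO-K6 arrays, a difference of -0.62 between the untreated lines and of 0.46 with pertuzumab. Like Akt1 and Pik3r2, it was lower on every CHO-K6 array than on either CHO-K1 array and highest of the CHO-K6 arrays with pertuzumab. Pdgfra, a receptor tyrosine kinase, differed by -0.70, but its second cluster by 0.13, so its clusters disagree. Grb2, the adaptor that couples receptors to RAS, was at 0.30, equal to its reference. None of the 8 measured lipid phosphatases passed the reference between the lines, with Inppl1 at -0.08 and Inpp5k at -0.34. With pertuzumab Inppl1, the SHIP2 phosphatase, was 0.34 higher.

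Around AKT, 4 of 12 genes passed the reference, 3 of them lower in CHO-K6. Ppp2r5c, a regulatory subunit of the phosphatase PP2A, differed by -0.70 (-0.58 on its second cluster), with 10.54 and 10.39 on the CHO-K1 arrays and 9.76 to 9.85 on the CHO-K6 arrays. The scaffold subunit Ppp2r1a was at 0.27 and Ppp2r2a at 0.13.

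Of the mTOR complexes 3 of 10 genes passed the reference between the lines. Tti1, which helps to assemble mTOR and related kinases, had 10.58 and 10.76 on the CHO-K1 arrays and 9.93, 10.14, 10.49 and 10.13 on the CHO-K6 arrays, at -0.65 between the untreated lines and 0.56 with pertuzumab. Rictor, the defining subunit of mTOR complex 2, had 8.96 and 8.33 on the CHO-K1 arrays and 9.36, 9.47, 8.88 and 9.41 on the CHO-K6 arrays. The Rictor lines overlapped, and its difference was 0.40 between the untreated arrays and 1.08 between the treated ones. Rictor was lower with pertuzumab in CHO-K6 (-0.48) and with the combination in CHO-K1 (-0.63), as Pik3ca was. Mtor itself had 8.76 and 8.80 on the CHO-K1 arrays and 8.22, 8.22, 8.53 and 8.29 on the CHO-K6 arrays. Its difference was -0.54 between the untreated lines, past its reference of 0.43, and -0.51 between the treated ones. The complex subunits Mapkap1 (0.05) and Mlst8 (0.15) differed little between the untreated lines.

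Tsc2, which restrains mTOR complex 1 and is inhibited by AKT, had 9.46 and 9.78 on the CHO-K1 arrays and 10.09, 10.12, 10.38 and 10.26 on the CHO-K6 arrays, a difference of 0.63 between the untreated lines. Its target Rheb was at -0.29. Of the kinases and translation factors downstream, 2 of 12 passed the reference, and Eif4ebp2, a repressor of cap-dependent translation, was at -0.68 (-0.79 on its second cluster) and at 0.35 with pertuzumab. Eif4e (0.03) and Rps6 (-0.13), of the cap-binding and ribosomal machinery, lay within the reference.

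None of the 4 FOXO genes, whose proteins AKT phosphorylates, passed the reference, with Foxo1 at 0.05 and Foxo3 at -0.21. Of 16 measured FOXO target genes 2 were higher and 2 lower in CHO-K6 past the reference. Txnip, which binds thioredoxin and limits glucose uptake, had 10.49 and 10.60 on the CHO-K1 arrays and 9.42, 9.52, 9.51 and 9.43 on the CHO-K6 arrays, a difference of -1.07 and past 2-fold. Klhl24, a ubiquitin ligase adaptor, was at 0.69, and Cat (0.11) and Cdkn1b (0.05) were within the reference. The median of the list was -0.11.

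With the antibodies, none of the 88 other pathway genes passed 2-fold in any of the 4 comparisons with untreated cells. With trastuzumab in CHO-K6 1 of 88 passed the reference, the FOXO target and ubiquitin ligase Fbxo32, at 0.45. With pertuzumab 8 of 88 did (9.09%), 5 higher and 3 lower, and with the combination 0 in CHO-K6 and 4 in CHO-K1. These shares lie near those of all clusters given above.

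For each of the 7 genes the genes most like it over the 6 arrays were sought among 9094 bright genes with 1 symbol, by the root mean square difference of the profiles after each was centred. For Akt1 they were Irx3 (0.027), Aprt (0.028) and Tapbp (0.029), and for Pik3r2 Chid1 (0.016), Hic1 (0.029) and Midn (0.031). Pik3ca lay nearest to Bbx (0.016), Znf148 (0.029) and Frs2 (0.032), and Pik3r1 to Gin1 (0.015), Usp12 (0.031) and Ttc37 (0.031). Akt2 had Clpb (0.020), Def8 (0.021) and Nfya (0.022). The profile of Pik3cb was matched less closely, by Pde7a (0.047), Slc9a9 (0.064) and Lrrc8b (0.076). The gene nearest to Pik3ip1 was Pik3r4 (0.049), followed by Chst2 (0.050) and Tuba8 (0.053). Likeness over 6 arrays of 2 lines is a description and was not tested.

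The cluster shared by Pdpk1, Kctd5 and LOC100775082 had 8.74 and 8.63 on the untreated and treated CHO-K1 arrays and 8.96, 8.95, 8.93 and 8.99 on the untreated, trastuzumab, pertuzumab and combination arrays of CHO-K6. The lines did not overlap on it, but the signal belongs to no single gene.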

How the data were processed

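RNA of 6 cultures was hybridized to 6 Affymetrix CHO Gene ST arrays, 1 per condition. The authors deposited log2 signals per transcript cluster, made with the Affymetrix Transcriptome Analysis Console, and the labels also name the Affymetrix Expression Console; the normalization method and the genome build of the array are not given in the sources used here. The deposited values were used without further scaling. Of 29700 clusters 16481 carried 1 symbol, 793 several and 12426 none, and 16394 were matched to RefSeq by gene identifier. No sequences were used here.

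Log2 differences were taken between pairs of arrays, called at 2-fold, and set beside the CHO-K1 reference, computed in 10 groups of clusters by mean signal. The members, the pathway lists and the tests were chosen with earlier results of these data known. Outside the members, genes were named when they differed by 1.5-fold or more in 1 of the 5 comparisons at a mean log2 signal of 6 or more, and the 2 brightest of each list otherwise. Fbxo32, Mtor and Pdk4 were named after their values were seen. For members with a range of 0.5 or more, the 3 nearest profiles were named.

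Alternatives were quantile normalization, the series matrix values (30934 clusters, at most 0.005 apart from the main table on shared ones), the mean of a gene's clusters, a 1.5-fold threshold, the mean in place of the median, a signal minimum, and other reference arrays. The alternatives for counts past the CHO-K1 reference and for the positions of the lines were chosen after seeing the data. The calculations were tested on simulated data. The number of arrays limits the precision. Python 3.11.15, NumPy 2.4.6, pandas 2.3.3 and matplotlib 3.10.9 were used.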

Additional observations from a re-analysis of the deposited data

Results flagged for a closer look

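For 3 of the 7 measured PI3K and AKT pathway genes the difference of trastuzumab + pertuzumab from untreated cells had opposite signs in the lines. The share of all clusters with opposite signs was not computed. Pik3r1 was at 0.03 in CHO-K6 and at -0.40 in CHO-K1, which makes the CHO-K6 difference 0.43 greater; its second cluster was at 0.18 and -0.31. Pik3cb was at 0.05 in CHO-K6 and at -0.23 in CHO-K1, a gap of 0.28. Its second cluster was at 0.09 and -0.07, which is a smaller gap. Pik3ip1 was at -0.06 in CHO-K6 and at 0.08 in CHO-K1, a gap of -0.14. The differences between the lines were not tested, since each condition had 1 array. On the CHO-K6 side the values of the brighter clusters of these 3 genes lay within 0.06 of 0, so no direction can be read from them. Pik3ca had the same sign in both lines (-0.07 in CHO-K6 and -0.39 in CHO-K1) and a gap of 0.32.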

How the results depend on the processing

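No paired analysis was possible because each condition had 1 array, and no replicate could be left out. Of 213 values recomputed under an alternative 197 kept within the spread of the CHO-K1 pair, or a count within 1.5 times, and no called value changed sign. With the trastuzumab + pertuzumab arrays of both lines in place of the untreated ones, the count past 2-fold went from 2 to 1 and the median of the 7 genes from 0.23 to 0.54. With the average of the trastuzumab and combination arrays as the reference, the count past the CHO-K1 reference with pertuzumab went from 2 to 0. Against the average of the other antibody arrays, trastuzumab differences above 0 turned below it for Akt1 (-0.24), Akt2 (-0.10) and Pik3r2 (-0.14), and those of the combination went to 0.00 for Akt1, -0.12 for Akt2 and -0.10 for Pik3r2, none past the CHO-K1 reference. For the combination in CHO-K1 the count past the reference went from 2 to 1 with quantile normalization, with the series matrix values and with the mean of a gene's clusters, and the mean difference was -0.056 where the median was 0.08. The cause of these moves was not tested. The number of genes with all CHO-K6 arrays above both CHO-K1 arrays was 3 with quantile normalization, which loses Pik3ca, and 5 without the pertuzumab array, which adds Pik3r1. At 1.5-fold, 3 genes were called between the untreated lines, Akt1 joining Pik3cb and Pik3ip1. Quantile normalization moved no member's difference by more than 0.04. Pik3ip1 in CHO-K1 lay near the array median, where the reference is wider.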
